A study of Mus musculus with 12 samples.

Results

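The genes described here are 37 mouse genes of DNA damage signalling and repair, a list made by function and not by any value measured here. Of them, 36 are named on the array (Xrcc2 was matched to no probe set and is not analysed here), out of 18193 genes named there. All 36 passed the filter on low values, among 12912 genes tested. Where several probe sets carry a gene's symbol alone, the brightest on average over the 12 arrays stands for the gene. The study asked how the INV16 fusion protein of core-binding factor and smooth muscle myosin alters expression in primitive blood progenitors. It used normal mouse bone marrow cells sorted as lineage-negative, c-Kit+, Sca-1+ and FLT3-negative (KLSF cells in the sample titles).

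3 groups were profiled on Affymetrix arrays, and all share the same sort, culture, retroviral infection and second sort. MIB control cells (5 arrays, replicates 3 to 7) received the empty retrovirus, INV16 cells (4 arrays) received the virus with the fusion, and ACD mutant cells (3 arrays) received INV16 lacking its assembly competent domain, a form the submitters call non-leukemogenic. Cells were grown in DMEM with 10% serum, 50 ng/ml SCF and 5 ng/ml IL-6 for 24 h, exposed to virus for 4 h and grown for 20 h more, and GFP-positive cells were then sorted for RNA. Expression therefore came from a retroviral vector in cultured cells and was read about 24 h after infection. The strain and age of the mice are not given in the sources used here. The design text counts repeated sorts, transductions and analyses, so the spread between arrays of a group may hold both biological and technical parts. All values are log2 signals, and a log2 fold change is the difference of group means.

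DNA repair begins with sensors. The Mre11a-Rad50-Nbn complex recognises broken ends and activates the kinase Atm, while Atr responds to exposed single-stranded DNA at stalled forks, and both signal through Chek1 and Chek2 to hold the cell cycle. Breaks are then mended by homologous recombination, which copies a sister chromatid and depends on Brca1, Palb2 and Brca2, or by non-homologous end joining, which ligates ends directly through the Ku proteins, Prkdc, Xrcc4 and Lig4. The Fanconi anaemia proteins unhook crosslinked strands, and their loss causes bone marrow failure, so blood progenitors are a tissue where these pathways matter. Mismatch, nucleotide excision and single-strand break repair deal with lesions of 1 strand.

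The promoter windows of the repair genes that changed in the comparisons below are shown first, since both genes were lower in cells with the intact fusion. They run from 250 bases before the RefSeq start site to 50 after it, on build GRCm38.p6, and are written in the direction of transcription. Palb2 lies at chr7:122132897-122133196 on the minus strand, and Helq at chr5:100798551-100798850 on the minus strand. Prkdc, the other gene that changed, had no entry in the promoter table. Capitals mark a match to one of the motifs searched.
Palb2: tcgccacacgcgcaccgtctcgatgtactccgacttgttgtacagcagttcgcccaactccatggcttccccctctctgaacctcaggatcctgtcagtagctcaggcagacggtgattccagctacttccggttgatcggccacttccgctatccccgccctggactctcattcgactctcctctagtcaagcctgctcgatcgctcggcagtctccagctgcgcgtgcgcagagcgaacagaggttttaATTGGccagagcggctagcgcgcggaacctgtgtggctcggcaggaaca
Helq: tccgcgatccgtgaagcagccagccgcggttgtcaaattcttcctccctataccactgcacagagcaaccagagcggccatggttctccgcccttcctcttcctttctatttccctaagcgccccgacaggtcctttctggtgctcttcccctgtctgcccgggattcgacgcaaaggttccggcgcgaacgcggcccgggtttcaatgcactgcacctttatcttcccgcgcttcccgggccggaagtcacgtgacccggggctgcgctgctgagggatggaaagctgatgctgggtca

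The motifs were sought on both strands, as RUNX (TGTGGT and TGCGGT, the sites of the DNA-binding partners of core-binding factor beta), E2F (TTTCCCGC, TTTCGCGC, TTTGCCGC and TTTGGCGC), CCAAT, and the cell cycle homology region (TTTGAA). The Palb2 window held 1 CCAAT on the reverse strand, starting 2 bases from the start site and overlapping no other motif, and the Helq window held none of the motifs. Of the 36 genes, 30 had an entry, with 33 windows in all. A RUNX word was in 24.2% of these windows, against 22.4% of all 32851 promoter windows. CCAAT was in 57.6% against 37.4%, and the cell cycle homology region was in 0% against 17.9%. An E2F word was in 18.2% of the repair windows against 2.26% of all windows, a difference noticed after the shares were seen. A match is a description of the letters and shows no binding. On GRCm38.p6 the stretches lie at chr5:150522443-150522470 (Brca2), chr5:110839821-110839848 (Chek2), chr17:87975055-87975082 (Msh6) and chr15:82016313-82016340 (Xrcc6), all on the plus strand, and at chr11:87404478-87404505 and chr11:87404942-87404969 (the 2 start sites of Rad51c) on the minus strand. The E2F words follow with flanking bases on either side, the word in capitals and GCGGGAAA being TTTCCCGC read on the other strand.
Brca2: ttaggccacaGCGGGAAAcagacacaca
Chek2: gggattagccGCGGGAAAccaagacgtc
Msh6: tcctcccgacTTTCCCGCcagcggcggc
Rad51c, downstream start: tttccagcgcTTTCGCGCctcttgctct
Rad51c, upstream start: ccccgcgaggGCGGGAAAagcaaggggt
Xrcc6: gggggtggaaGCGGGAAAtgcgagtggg

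Before the comparisons, some facts of the whole set of arrays touch the repair genes. Over all probe sets, the arrays other than INV16 replicate 4 correlated with each other at 0.985 to 0.996, pairs within and between groups together. INV16 replicate 4 correlated at only 0.895 to 0.917 with them, so the comparisons use the other 11 arrays and INV16 replicate 4 is given apart. On the 11 arrays the mean log2 signal of 12 primitive progenitor genes (such as Kit, Cd34 and Hoxa9) was 10.76 to 11.27, each of them past the filter, and that of 7 lymphocyte genes was 5.35 to 5.67. Bacterial spike-in controls split the arrays, with a BioC minus BioB difference below 0.5 on the 3 ACD mutant arrays, INV16 replicate 4 and MIB control replicates 6 and 7, and above it on the other arrays. No side of that split holds both INV16 replicates 1 to 3 and ACD mutant arrays. In these bulk samples, fewer cells of a type and less RNA per cell cannot be told apart.

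For most repair genes the arrays of either fusion overlapped those of the control. Against MIB control, Palb2 and Helq fell in INV16 replicates 1 to 3, Helq fell in ACD mutant cells, and between the fusions only Prkdc differed among the 36 genes, being lower in INV16. All tests are limma's moderated test with Benjamini-Hochberg adjustment over the 12912 genes, and a gene is called when its adjusted p is under 0.05. In INV16 against MIB control 2 of the 36 repair genes were called, both lower, where 1.7% of all genes were called, 1.07% lower and 0.627% higher. In ACD mutant against MIB control 1 was called, lower, where 1.7% of all genes were called, 0.713% lower and 0.984% higher. In INV16 against ACD mutant 1 was called, lower, where 2.07% of all genes were called, 1.76% lower and 0.31% higher. With counts this small, the share of repair genes called is not read as different from that of all genes. The first and second comparisons use the same MIB control arrays, so their values are set side by side and not related to each other.

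The direction of the whole group was modest. In INV16 against MIB control 25 of 36 repair genes had a log2 fold change below 0, where 56.3% of all genes did, and the median was -0.12 against -0.03 over all genes. In ACD mutant against MIB control 24 of 36 were below 0, where 48.6% of all genes were, with a median of -0.06 against 0.01. In INV16 against ACD mutant 24 of 36 were below 0, where 54.3% of all genes were, with a median of -0.12 against -0.02. At an unadjusted p under 0.05 there were 7 repair genes in the first comparison (15.8% of all genes), 8 in the second (19.5%) and 5 in the third (19%). The first were Palb2, Helq, Rad54l, Exo1, Fanca, Prkdc and Msh6, the second Palb2, Helq, Rad54l, Xrcc4, Xrcc6, Lig4, Prkdc and Msh6, and the third Prkdc, Xrcc4, Xrcc6, Chek2 and Rad51ap1. The fold changes with their standard errors are drawn by pathway, and most error bars cross or lie near 0.

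**Figure D1:**
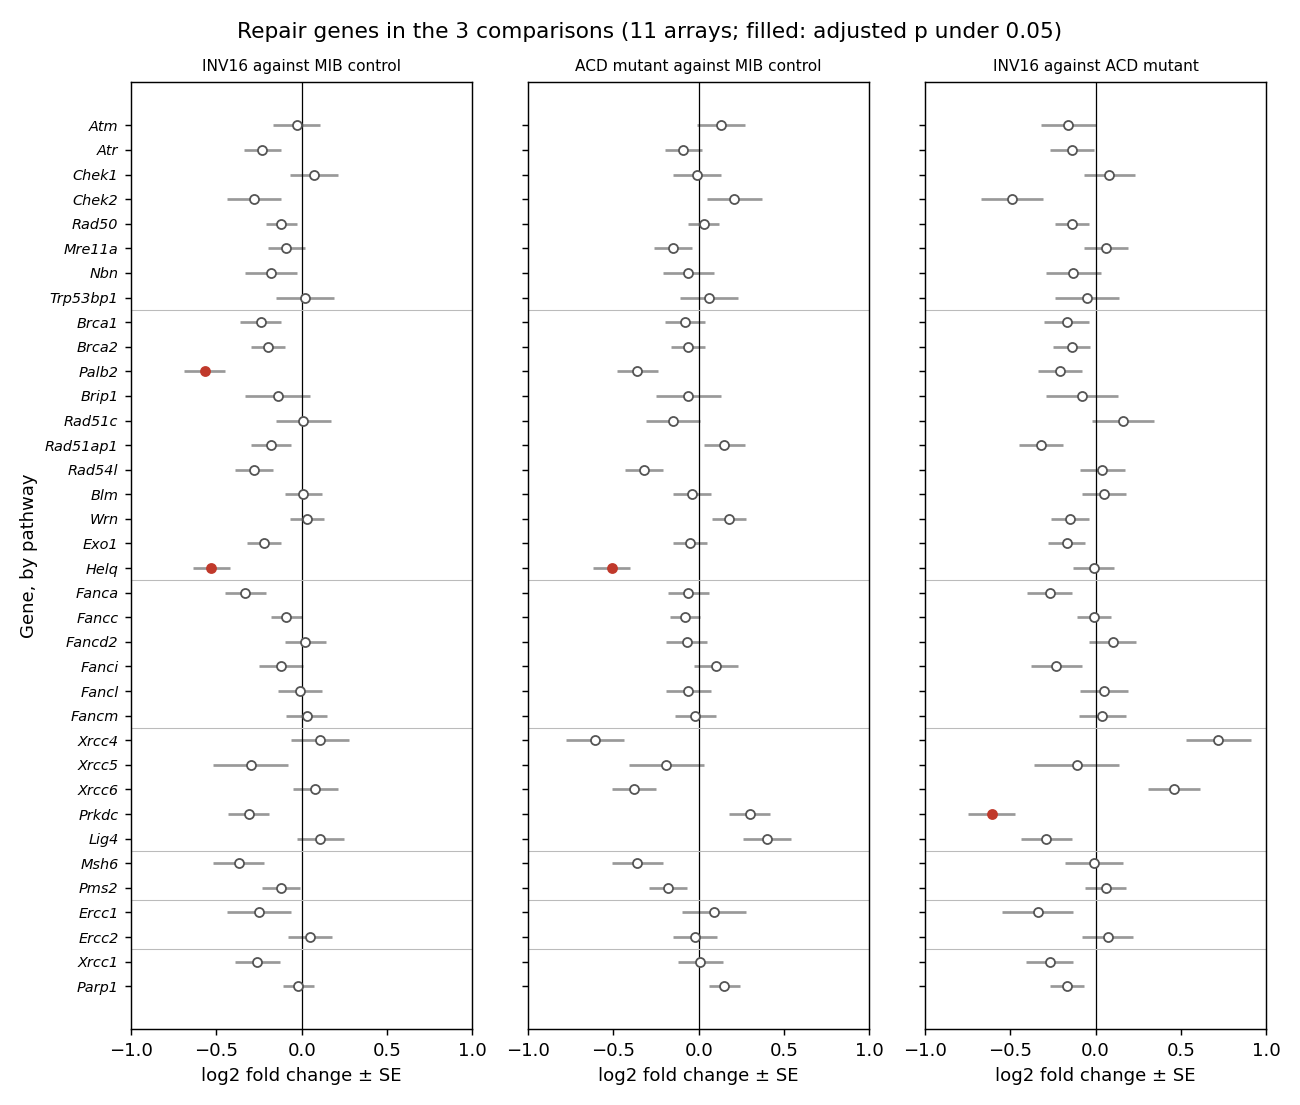
Log2 fold change (horizontal axis) of the 36 repair genes (rows, grouped by pathway) in the 3 comparisons over 11 arrays, with bars for the standard error and filled points for an adjusted p under 0.05. Filled points are Palb2 and Helq at -0.57 and -0.53 for INV16 against MIB control, Helq at -0.51 for ACD mutant against MIB control, and Prkdc at -0.61 for INV16 against ACD mutant.

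Counting genes whose groups do not overlap gave a similar picture. Every INV16 array (replicates 1 to 3) was below every MIB control array for 3 genes, Palb2, Helq and Brca2, where this held for 5.99% of all genes, and above for none, where it held for 3.28%. Every ACD mutant array was below every MIB control array for 4 genes, Helq, Xrcc4, Rad54l and Msh6 (5.84% of all genes), and above for 2, Prkdc and Wrn (6.92%). INV16 was entirely below ACD mutant for 10 genes (19.2% of all genes), namely Prkdc, Chek2, Brca1, Rad51ap1, Exo1, Fanca, Fanci, Ercc1, Xrcc1 and Parp1. It was entirely above for 3 genes (9.45%), Xrcc4, Xrcc6 and Rad51c. The map of the 36 genes over the arrays shows how small these shifts were beside the column of INV16 replicate 4.

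**Figure D2:**
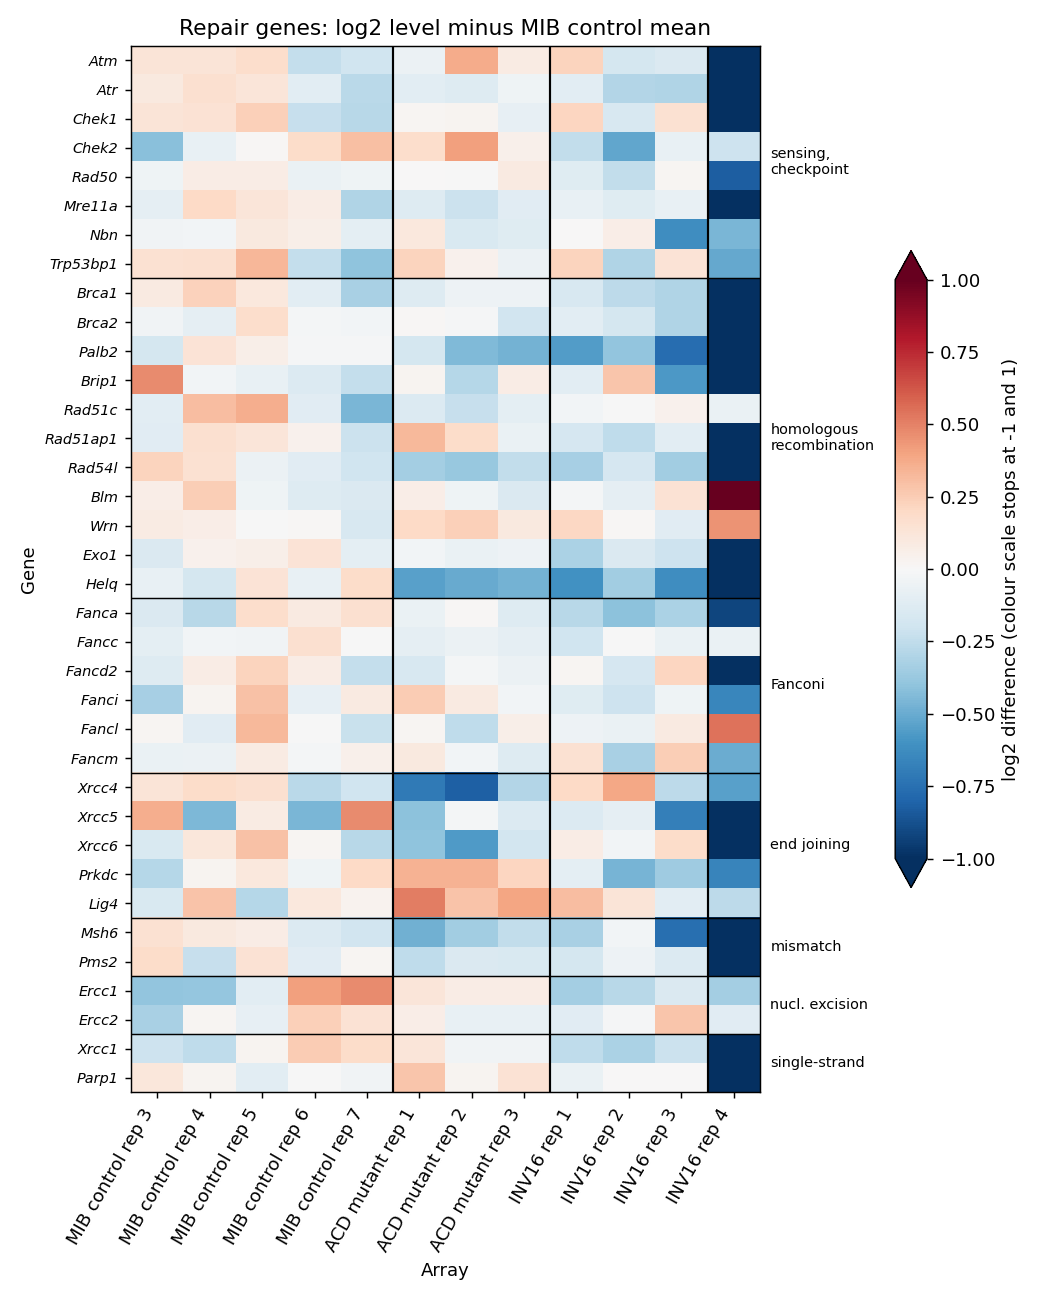
Difference of each array's log2 signal from the MIB control mean (colour, stopping at -1 and 1) for the 36 repair genes (rows, by pathway) on the 12 arrays (columns). Palb2 and Helq are blue on all 3 of INV16 replicates 1 to 3, and most genes are dark blue on INV16 replicate 4 alone, with Blm red.

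The damage sensors and checkpoint kinases showed no called gene among 8 in any of the 3 comparisons over 11 arrays, and none had groups apart from MIB control. Their median log2 fold change was -0.10 in INV16 and 0.01 in ACD mutant cells against MIB control. Atm, the kinase activated by double-strand breaks, read 9.12, 9.12, 9.16, 8.75 and 8.79 on the MIB control arrays, 9.21, 8.81 and 8.84 on INV16 replicates 1 to 3, and 8.93, 9.36 and 9.07 on the ACD mutant arrays. The 3 groups of Atm values overlapped, with fold changes of -0.03 (SE 0.14) in INV16 and 0.13 (SE 0.14) in ACD mutant cells. Atr, the kinase of stalled forks, read 8.96, 9.02, 8.98, 8.76 and 8.59 in MIB control, 8.76, 8.57 and 8.56 in INV16, and 8.76, 8.73 and 8.82 in ACD mutant cells. Atr in INV16 reached only into the lower end of the controls, at -0.23 (SE 0.11, limma adjusted p = 0.338).

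Chek1, the effector kinase downstream of Atr, read 11.06, 11.08, 11.17, 10.70 and 10.66 in MIB control, 11.15, 10.77 and 11.09 in INV16, and 10.95, 10.96 and 10.85 in ACD mutant cells. Its groups overlapped throughout, with 0.07 (SE 0.14) in INV16 and -0.01 (SE 0.14) in ACD mutant cells against the control. Other Chek1 probe sets past the filter gave 0.04 and -0.25 in INV16 and 0.09 and -0.37 in ACD mutant cells. Chek2, the effector downstream of Atm, read 8.98, 9.32, 9.41, 9.58 and 9.70 in MIB control, 9.15, 8.88 and 9.32 in INV16, and 9.57, 9.81 and 9.45 in ACD mutant cells. INV16 and ACD mutant arrays did not overlap for Chek2, while both overlapped the wide control range. The difference of -0.49 (SE 0.18) between the fusions missed the threshold (limma adjusted p = 0.157). The end-binding complex was flat, with Rad50 at -0.12 and 0.03, Mre11a at -0.09 and -0.15 and Nbn at -0.18 and -0.06 in INV16 and ACD mutant cells against the control. Trp53bp1, which shields broken ends and favours end joining, stood at 0.02 and 0.06.

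Homologous recombination held both genes that fell in INV16. Its 11 members had a median log2 fold change of -0.20 in INV16 and -0.06 in ACD mutant cells against MIB control, with 8 and 9 below 0. Palb2, the partner that links Brca1 to Brca2 and brings the recombinase to breaks, read 7.93, 8.24, 8.16, 8.09 and 8.09 in MIB control (8.10 ± 0.12, SD, n = 5) and 7.54, 7.71 and 7.34 in INV16 replicates 1 to 3 (7.53 ± 0.19, SD, n = 3). In ACD mutant cells it read 7.93, 7.66 and 7.63 (7.74 ± 0.17, SD, n = 3). All INV16 values of Palb2 were under the lowest control, and the ACD mutant values overlapped both groups, with 1 at the lowest control value and the other 2 within the INV16 range. Palb2 was 1.49-fold lower in INV16 than in MIB control (log2 -0.57, SE 0.12, limma adjusted p = 0.027). The ACD mutant value against the control was -0.36 (SE 0.12, adjusted p = 0.112), and INV16 differed from ACD mutant by -0.21 (SE 0.13, adjusted p = 0.404), so a difference between the fusions in Palb2 was not shown.

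The Palb2 call rests on a narrow margin. It was lost with the spike-in split as a block (-0.58, adjusted p = 0.0554), within the arrays of 1 side of that split (-0.58, adjusted p = 0.149), with only the 2 groups in the fit (-0.57, adjusted p = 0.0568), and without MIB control replicate 5 (-0.56, adjusted p = 0.0675), MIB control replicate 6 (-0.58, adjusted p = 0.0529), INV16 replicate 1 (-0.58, adjusted p = 0.131) or INV16 replicate 3 (-0.48, adjusted p = 0.0836). Palb2 has 1 probe set on the array, so no other probe set bears on it.

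Helq, a helicase that assists recombination at stalled and crosslinked forks, was the one gene of the 36 called against the control with both proteins. It read 7.21, 7.11, 7.42, 7.21 and 7.47 in MIB control (7.28 ± 0.15, SD, n = 5), 6.68, 6.94 and 6.66 in INV16 (6.76 ± 0.16, SD, n = 3), and 6.74, 6.78 and 6.81 in ACD mutant cells (6.77 ± 0.03, SD, n = 3). All 6 fusion arrays of Helq were under the lowest control, and the INV16 values spanned those of the ACD mutant. Helq was 1.44-fold lower in INV16 (log2 -0.53, SE 0.11, limma adjusted p = 0.0327) and 1.43-fold lower in ACD mutant cells (log2 -0.51, SE 0.11, adjusted p = 0.0432). The fusions differed by -0.01 (SE 0.12, adjusted p = 0.962). A dimmer Helq probe set, under the filter on low values, gave -0.29 and -0.17.

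With the spike-in block Helq stood at -0.49 in INV16 (adjusted p = 0.0805) and -0.57 in ACD mutant cells (adjusted p = 0.0883), and within 1 side of the split at -0.49 (adjusted p = 0.19) and -0.57 (adjusted p = 0.0707). With only the 2 groups in the fit the adjusted p was 0.0865 and 0.0626. Leaving out an array moved the adjusted p of Helq in INV16 to as much as 0.185 (INV16 replicate 1, -0.49), and above the threshold also without INV16 replicate 3 (0.091), MIB control replicates 5, 6 or 7 (0.0801, 0.0523 and 0.0593) or any ACD mutant array (0.0512 to 0.0538). In ACD mutant cells the Helq call was lost without MIB control replicates 3 or 5 (0.0551 and 0.0971), INV16 replicate 1 (0.062) or ACD mutant replicates 1, 2 or 3 (0.194, 0.189 and 0.0631). The plot of single arrays shows the gap between the controls and both fusions for Helq and the overlap of the fusions for Palb2.

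**Figure D3:**
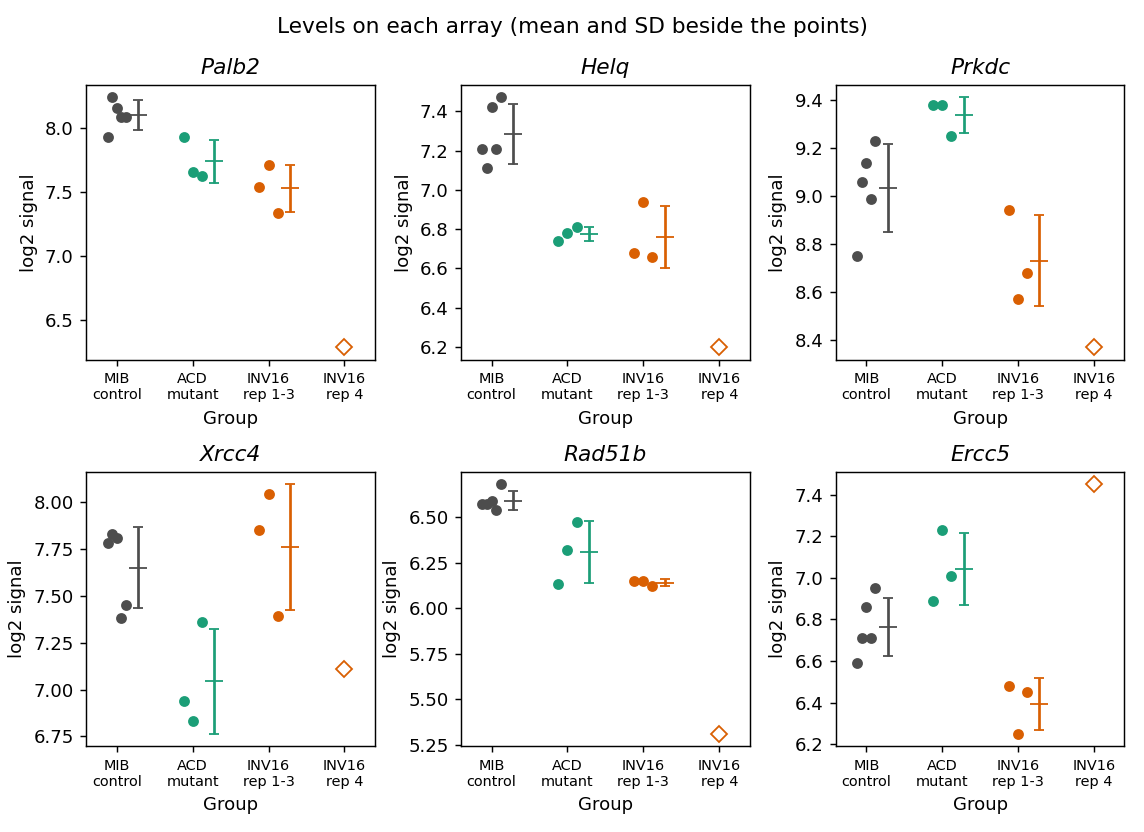
Log2 signal (vertical axis, its range differing between panels) on each array for Palb2, Helq, Prkdc, Xrcc4, Rad51b and Ercc5, by group, with the mean and SD beside the points and INV16 replicate 4 as an open diamond. The 3 INV16 points of Palb2 (7.34 to 7.71) and all 6 fusion points of Helq (6.66 to 6.94) lie under the control points, and Prkdc is higher in ACD mutant (9.25 to 9.38) than in INV16 (8.57 to 8.94).

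The core of the recombination pathway moved little. Brca1, the scaffold that starts end resection, read 9.61 to 10.16 (median 10.02) in MIB control, 9.77, 9.67 and 9.63 in INV16, and 9.80, 9.88 and 9.88 in ACD mutant cells. Its fold changes were -0.24 (SE 0.12, adjusted p = 0.346) and -0.08 against the control. Its other probe sets past the filter gave 0.14 and 0.02 in INV16, and -0.41 and 0.1 in ACD mutant cells. Between the fusions the probe set used gave -0.17 and the others 0.55 and -0.08, so the direction of Brca1 there depends on the probe set. Brca2, which loads the recombinase, read 10.30 to 10.56 in MIB control, 10.28, 10.21 and 10.09 in INV16, and 10.40, 10.38 and 10.20 in ACD mutant cells. INV16 was under all controls for Brca2, by -0.20 (SE 0.10, adjusted p = 0.354). Rad54l, the motor that helps the invading strand find its partner, stood at -0.28 (SE 0.11, adjusted p = 0.243) in INV16 and -0.32 (SE 0.11, adjusted p = 0.133) in ACD mutant cells. Its ACD mutant arrays (10.03 to 10.16) were all under its controls (10.21 to 10.63), but its other probe sets past the filter gave 0.02, -0.16 and -0.37 in ACD mutant cells. Exo1, the resection nuclease, stood at -0.22 and -0.05, but a second Exo1 probe set past the filter gave 0.69 and 0.65, so its direction depends on the probe set.

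Rad51ap1, a stimulator of strand pairing, stood at -0.18 in INV16 and 0.15 in ACD mutant cells, and the fusions did not overlap (INV16 10.66 to 10.81, ACD mutant 10.85 to 11.24), a difference of -0.32 (SE 0.13, adjusted p = 0.207). Its other 3 probe sets gave differences of -0.15, 0.33 and 0.24 between the fusions. In ACD mutant cells against the control they gave -0.19, -0.51 and -0.25, so the direction of Rad51ap1 there depends on the probe set. Wrn, a RecQ helicase, was entirely above the controls in ACD mutant cells (8.43 to 8.57 against 8.17 to 8.41) by 0.18 (SE 0.10, adjusted p = 0.364). Other Wrn probe sets past the filter gave 0.01 and -0.09 in ACD mutant cells. Blm, the other RecQ helicase of the list, stood at 0.01 and -0.04, Brip1, the helicase partner of Brca1, at -0.14 and -0.06, and Rad51c, a paralogue of the recombinase, at 0.01 and -0.15.

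Other gene groups also held lower or higher values on the same arrays. Over all genes, 56.3% were below 0 in INV16 and 48.6% in ACD mutant cells against MIB control. At an unadjusted p under 0.05 the shares were 15.8% and 19.5%. Of 27 S phase genes tested, 24 had a log2 fold change below 0 in INV16 against MIB control (median -0.10), with 6 at an unadjusted p under 0.05 and none called by limma. In ACD mutant cells 19 were below 0 (median -0.11) and 9 had an unadjusted p under 0.05, with Rrm1 called lower at -0.46 (adjusted p = 0.0379). Of 19 genes of G2 and mitosis, 13 were below 0 in INV16 (median -0.07, 1 at an unadjusted p under 0.05 and none called by limma). In ACD mutant cells 16 were below 0 (median -0.18), 7 had an unadjusted p under 0.05, and Aurka, a mitotic kinase, was called lower at -0.54 (adjusted p = 0.0486). Their median log2 difference from the MIB control mean on single arrays was -0.21 to -0.16 in ACD mutant and -0.10 to 0.06 in MIB control. The mean of 11 mast cell genes on the ACD mutant arrays (6.64 to 6.80) overlapped that of MIB control (6.10 to 6.76), and Hdc, the histamine-forming enzyme, rose by 1.56 (adjusted p = 0.015). The mean level of 9 macrophage and neutrophil genes was 6.37 to 6.67 on INV16 replicates 1 to 3, below the 6.71 to 8.17 of MIB control. S100a8 fell by 3.08 on the log2 scale in INV16 (limma adjusted p = 0.0144), and S100a9 stood at -2.20 (adjusted p = 0.0623). The progenitor gene Gata2 stood at -0.71 in INV16 (adjusted p = 0.094). Of the 12 primitive progenitor genes, however, 5 were below 0 and 7 above in INV16, with a median of 0.06 and none called by limma. Of 12 p53 target genes tested, 10 were above 0 in each fusion. The median was 0.20 in INV16 (2 at an unadjusted p under 0.05 and none called by limma). In ACD mutant cells it was 0.47 (7 at an unadjusted p under 0.05), and Sesn2 (0.67, adjusted p = 0.036) and Bbc3 (0.66, adjusted p = 0.0364) rose. The part of these shifts in the Palb2 and Helq values was not tested.

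In the Fanconi anaemia pathway none of 6 members was called over 11 arrays, and the medians were -0.05 in INV16 and -0.06 in ACD mutant cells. Fanca, a subunit of the core ligase complex, read 8.39, 8.26, 8.71, 8.63 and 8.70 in MIB control, 8.26, 8.13 and 8.22 in INV16, and 8.47, 8.55 and 8.41 in ACD mutant cells. The INV16 values of Fanca reached the lowest control and were under all ACD mutant values, with -0.33 (SE 0.12, limma adjusted p = 0.191) against the control and -0.27 (SE 0.13, adjusted p = 0.288) against ACD mutant. A dimmer Fanca probe set past the filter gave 0 and 0.05 for these. Fanci, which is ubiquitinated together with Fancd2 to start crosslink repair, read 8.01, 8.37, 8.63, 8.26 and 8.43 in MIB control, 8.22, 8.13 and 8.30 in INV16, and 8.59, 8.43 and 8.31 in ACD mutant cells. Its INV16 arrays lay under the ACD mutant arrays and inside the control range, at -0.12 (SE 0.13) against the control. Fancd2 itself stood at 0.02 and -0.07, with other probe sets past the filter at -0.27 and 0.08 in INV16 and -0.55 and -0.28 in ACD mutant cells. Fancc, a core complex subunit, Fancl, the catalytic ubiquitin ligase subunit, and Fancm, the DNA translocase, ranged from -0.09 to 0.03 in INV16 and from -0.08 to -0.02 in ACD mutant cells.

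In end joining 1 of 5 members was called, and members stood on opposite sides between the fusions. Prkdc, the catalytic subunit of the DNA-dependent kinase, read 8.75, 9.06, 9.14, 8.99 and 9.23 in MIB control (9.04 ± 0.18, SD, n = 5), 8.94, 8.57 and 8.68 in INV16 (8.73 ± 0.19, SD, n = 3), and 9.38, 9.38 and 9.25 in ACD mutant cells (9.34 ± 0.08, SD, n = 3). All INV16 values of Prkdc were under all ACD mutant values, and the controls lay between, overlapping INV16 but not ACD mutant. Prkdc was 1.53-fold lower in INV16 than in ACD mutant cells (log2 -0.61, SE 0.14, limma adjusted p = 0.0411). Neither fusion passed against the control, with -0.31 (SE 0.12, adjusted p = 0.241) in INV16 and 0.30 (SE 0.12, adjusted p = 0.19) in ACD mutant cells.

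The Prkdc difference was -0.48 (adjusted p = 0.394) with the spike-in block and -0.55 (adjusted p = 0.0779) after quantile normalisation. It stood at -0.53 to -0.71 and lost the call without any 1 of the INV16 or ACD mutant arrays (adjusted p = 0.0562 to 0.167) and without MIB control replicate 5 (-0.61, adjusted p = 0.0553). Other measures also separated these groups. The Gapdh difference between probe sets at the transcript's ends (3′ minus 5′, higher with more degraded or less fully copied RNA) was 1.10 to 1.53 on INV16 replicates 1 to 3 and 1.63 to 3.17 on the ACD mutant arrays. The mean of 11 mast cell genes was 6.29 to 6.39 against 6.64 to 6.80, with Cpa3 (-1.45, adjusted p = 0.0379) and Ms4a2 (-2.01, adjusted p = 0.0418) lower in INV16, and that of 9 macrophage and neutrophil genes was 6.37 to 6.67 against 7.10 to 7.16. Ccng1, a p53 target, stood at -0.65 (adjusted p = 0.0529). The part of these in the Prkdc difference was not tested.

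Xrcc4, the scaffold of the end-joining ligase, went the other way without passing the test, and was chosen for full values after they were seen. It read 7.78, 7.83, 7.81, 7.38 and 7.45 in MIB control, 7.85, 8.04 and 7.39 in INV16, and 6.94, 6.83 and 7.36 in ACD mutant cells. The ACD mutant values of Xrcc4 were under every control and every INV16 value, by -0.61 against the control (SE 0.17, limma adjusted p = 0.0795) and 0.72 as INV16 over ACD mutant (SE 0.19, adjusted p = 0.0684). A second Xrcc4 probe set gave -0.59 and 0.48. With the spike-in block these values were -0.37 (adjusted p = 0.36) and 0.33 (adjusted p = 0.644), and without INV16 replicate 3 the difference of the fusions was 0.90 (adjusted p = 0.0336).

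Xrcc6, the smaller Ku subunit, stood at 0.08 in INV16 and -0.38 (SE 0.13, adjusted p = 0.137) in ACD mutant cells, and INV16 (10.20 to 10.41) was entirely above ACD mutant (9.66 to 10.04). Xrcc5, the larger Ku subunit, read 8.79, 7.98, 8.51, 7.97 and 8.90 in MIB control, 8.29, 8.34 and 7.75 in INV16, and 8.02, 8.41 and 8.29 in ACD mutant cells. The controls of Xrcc5 spanned all ACD mutant arrays and 2 of the 3 INV16 arrays, the other lying below them, and its values of -0.30 (SE 0.22, adjusted p = 0.558) and -0.19 (SE 0.22, adjusted p = 0.72) had the largest standard error of the members tested against the control. Lig4, the ligase bound by Xrcc4, stood at 0.11 in INV16 and 0.40 (SE 0.14, adjusted p = 0.132) in ACD mutant cells. Its ACD mutant arrays (6.71 to 6.93) touched the highest control (6.71).

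In mismatch repair, both members were below the control in both fusions and neither was called. Msh6, a mismatch recognition protein, read 11.58, 11.52, 11.50, 11.29 and 11.23 in MIB control, 11.10, 11.40 and 10.67 in INV16, and 10.94, 11.08 and 11.18 in ACD mutant cells. The ACD mutant arrays of Msh6 were under all controls, and 1 INV16 array was within them. The fold changes were -0.37 (SE 0.15, limma adjusted p = 0.247) in INV16 and -0.36 (SE 0.15, adjusted p = 0.204) in ACD mutant cells. Pms2, a subunit of the nicking complex that follows recognition, read 8.77, 8.35, 8.73, 8.47 and 8.60 in MIB control, 8.41, 8.53 and 8.45 in INV16, and 8.33, 8.44 and 8.43 in ACD mutant cells. Both fusions overlapped the lower controls, at -0.12 (SE 0.11) and -0.18 (SE 0.11).

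In nucleotide excision repair neither of the 2 members was called, and both were higher on MIB control replicates 6 and 7 than on replicates 3 to 5, the sides of the spike-in split. Ercc1, part of the nuclease that cuts on the far side of a lesion, read 9.23, 9.24 and 9.52 on MIB control replicates 3 to 5 and 10.04 and 10.10 on replicates 6 and 7. It read 9.29, 9.35 and 9.48 in INV16 and 9.75, 9.70 and 9.70 in ACD mutant cells. The INV16 values of Ercc1 sat among the controls on their own side of the split, and the values of -0.25 (SE 0.19, limma adjusted p = 0.574) in INV16 and -0.34 (SE 0.21, adjusted p = 0.418) against ACD mutant did not pass. Ercc2, the helicase that opens the damaged stretch, read 7.16, 7.50, 7.40, 7.72 and 7.63 in MIB control, 7.37, 7.47 and 7.76 in INV16, and 7.55, 7.41 and 7.41 in ACD mutant cells. Its groups overlapped, at 0.05 (SE 0.13) and -0.02 (SE 0.13).

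Neither member of single-strand break repair was called. Xrcc1, the scaffold that gathers polymerase and ligase at a nick, read 8.77, 8.72, 9.0, 9.23 and 9.16 in MIB control, 8.72, 8.66 and 8.76 in INV16, and 9.10, 8.94 and 8.94 in ACD mutant cells. The INV16 values of Xrcc1 met the lowest controls, which are on the same side of the spike-in split, and were under all ACD mutant values. The Xrcc1 fold changes were -0.26 (SE 0.13, limma adjusted p = 0.331) against the control and -0.27 (SE 0.14, adjusted p = 0.313) against ACD mutant. Parp1, the sensor that marks nicks with poly-ADP-ribose, read 11.41, 11.32, 11.19, 11.29 and 11.26 in MIB control, 11.23, 11.30 and 11.30 in INV16, and 11.57, 11.32 and 11.44 in ACD mutant cells. INV16 lay inside the control range for Parp1, at -0.02 (SE 0.09), and ACD mutant stood at 0.15 (SE 0.09, adjusted p = 0.419).

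A wider list of 110 other repair genes, of which 97 were tested, gave few calls as well. In INV16 against MIB control 1 of them fell and 0 rose (1.07% and 0.627% of all genes), 73 were below 0 (56.3% of all genes) and the median was -0.10 against -0.03 over all genes, so the count called is near the share over all genes. Rad51b, a paralogue of the recombinase, read 6.57, 6.57, 6.59, 6.54 and 6.68 in MIB control, 6.15, 6.15 and 6.12 in INV16, and 6.13, 6.32 and 6.47 in ACD mutant cells. Its INV16 values were all under the controls, a 1.36-fold lower level (log2 -0.45, SE 0.10, limma adjusted p = 0.0344). The ACD mutant values of Rad51b were also all under the controls, at -0.28 (adjusted p = 0.125). INV16 differed from ACD mutant by -0.17 (adjusted p = 0.431), so a difference between the fusions in Rad51b was not shown. After Rad51b, the smallest p-values in INV16 against MIB control belonged to Ddb2, a sensor of ultraviolet lesions, at -0.58 (adjusted p = 0.0501), and Timeless, a fork protection factor, at -0.44 (adjusted p = 0.0547). Neither passed. The Rad51b call was lost with the spike-in block (-0.43, adjusted p = 0.0742), within 1 side of the split (-0.43, adjusted p = 0.149), with only the 2 groups in the fit (-0.45, adjusted p = 0.0558), without any INV16 array (-0.44 to -0.45, adjusted p = 0.073 to 0.153), without MIB control replicates 5, 6 or 7 (0.0754, 0.0588 and 0.0649) and without ACD mutant replicate 2 (0.0538).

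In ACD mutant against MIB control none of the 97 was called by limma, 20 had an unadjusted p under 0.05 (19.5% of all genes), 53 were below 0 (48.6%) and the median was -0.03 against 0.01. The smallest p-values there belonged to Gtf2h3, a subunit of the repair and transcription factor that opens DNA, at -0.60 (adjusted p = 0.0575), Rev3l, the catalytic subunit of a translesion polymerase, at 0.37 (adjusted p = 0.0748), and Aptx, which cleans abortive ligation ends, at -0.48 (adjusted p = 0.0766). Between the fusions 1 of the 97 was called (2.07% of all genes), 63 were below 0 (54.3%) and the median was -0.12 against -0.02. The gene called was Ercc5, the nuclease that cuts on the near side of a lesion. Ercc5 read 6.59, 6.71, 6.86, 6.71 and 6.95 in MIB control, 6.48, 6.25 and 6.45 in INV16, and 6.89, 7.23 and 7.01 in ACD mutant cells. All INV16 values of Ercc5 were under all controls and all ACD mutant values, with a difference of -0.64 between the fusions (SE 0.13, adjusted p = 0.0254). The Ercc5 call was lost with the spike-in block (-0.53, adjusted p = 0.324) and without INV16 replicates 1 or 2 (-0.69, adjusted p = 0.0707, and -0.57, adjusted p = 0.102) or ACD mutant replicates 2 or 3 (-0.55, adjusted p = 0.131, and -0.66, adjusted p = 0.0637). Mcm9, a helicase of recombination, at -0.77 (adjusted p = 0.0507) and Gtf2h4 at -0.69 (adjusted p = 0.0602) came next.

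On INV16 replicate 4 most repair genes were lower than on any other array. Of the 36 genes, 31 were below the mean of INV16 replicates 1 to 3, with a median difference of -0.76, where the median over all genes was 0.00. It was below the range of the other 11 arrays for 25 genes, where this held for 38.8% of all genes, above it for 3 (34.3% of all genes) and inside it for 8. Exo1 was 5.80 on this array against 9.09 to 9.26 on INV16 replicates 1 to 3, a difference of -3.39. Chek1 was 7.73 against 10.77 to 11.15 (-3.28), Brca1 6.80 against 9.63 to 9.77 (-2.89), Rad54l 7.59 against 10.06 to 10.24 (-2.54), and Rad51ap1 8.24 against 10.66 to 10.81 (-2.50). These 5 genes lay outside every other array by more than the whole spread of those arrays.

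By pathway, the median difference of INV16 replicate 4 from INV16 replicates 1 to 3 was -1.88 in homologous recombination (11 genes) and -0.86 in sensing and checkpoint (8 genes). It was -0.52 in the Fanconi pathway (6 genes) and -0.65 in end joining (5 genes). With 2 genes each, it was -1.62 in mismatch repair, -1.05 in single-strand break repair and -0.13 in nucleotide excision repair. These medians come from 1 array, and no order of pathways is read from them. Msh6 was 8.88 (-2.18), Brca2 8.03 (-2.16), Xrcc5 6.17 (-1.96), Brip1 4.83 (-1.88) and Xrcc6 8.49 (-1.81). The 3 genes above the other arrays were Blm at 11.12 (other 11 arrays 9.55 to 9.94), Wrn at 8.78 (8.17 to 8.57) and Fancl at 10.23 (9.43 to 10.01). Chek2 (9.19), Ercc1 (9.29), Ercc2 (7.37), Fancc (7.52) and Rad51c (7.51) stayed within the other arrays' range. Palb2 was 6.29, Helq 6.20 and Prkdc 8.37, each below the other 11 arrays. The kinases Atm at 7.93 and Atr at 7.58 were also below them, as were Fanca at 7.62, Fanci at 7.69, Pms2 at 7.40, Xrcc1 at 7.91 and Parp1 at 9.99. Xrcc4, at 7.11, lay inside. Of the other repair genes, Rad51b was 5.31, below every other array, and Ercc5 was 7.45, above every other array. Among the genes with an E2F word in the window, Brca2, Msh6 and Xrcc6 were far lower on this array, while Chek2 and Rad51c differed from INV16 replicates 1 to 3 by 0.07 and -0.08. Chek1 (-3.28), Brca1 (-2.89), Rad54l (-2.54) and Rad51ap1 (-2.50), whose windows held no E2F word, were lower still. Blm, also without an E2F word, was higher (1.42). A link between the word and these values was not tested.

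**Figure D4:**
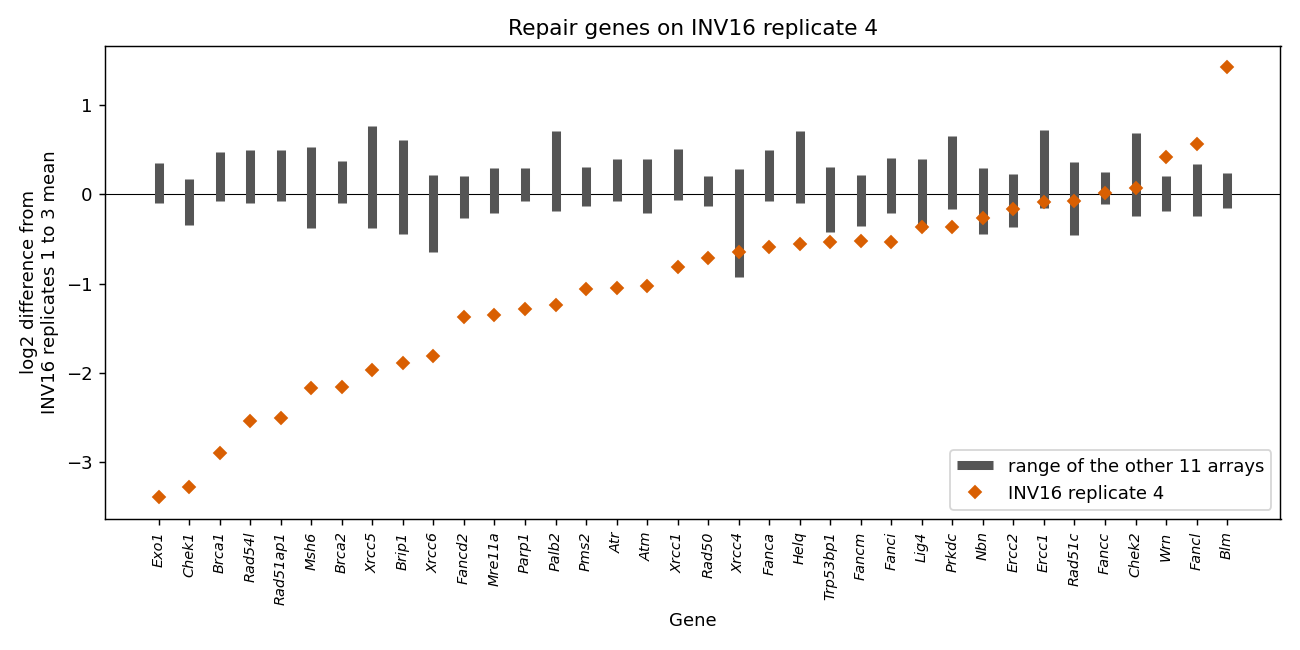
Log2 difference from the mean of INV16 replicates 1 to 3 (vertical axis) for the 36 repair genes, ordered by that difference, with bars for the range of the other 11 arrays and diamonds for INV16 replicate 4. The diamonds run from -3.39 for Exo1 to 1.42 for Blm, and 25 lie below their bar.

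This array also differed in many other ways. Against INV16 replicates 1 to 3, the 27 S phase genes had a median of -2.20, the 19 genes of G2 and mitosis a median of -2.32, and all of them were lower. The 12 p53 target genes had a median of 0.91, with 3 of them below 0. All 11 mast cell genes named on the array were above the other 11 arrays, with a mean of 10.17 against 6.10 to 6.80, and all 6 erythroid genes were above them too. Only 8 of these mast cell genes and 3 of these erythroid genes passed the filter on low values. That filter takes the mean over all 12 arrays, INV16 replicate 4 included. High values on this array therefore help a gene past it, so passing is no separate check on those values. Hba-a1, under the filter, was 4.57 against 4.56 at most on the other arrays. Of 7 lymphocyte genes, 5 were also above the other arrays. The primitive progenitor genes had a mean of 8.96 against 10.76 to 11.27, with 6 of 12 below the other arrays and 2 above. Its Gapdh 3′ minus 5′ difference was 3.64. The array is single, and the part of each of these in its repair gene values was not tested.

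With all 12 arrays in the fit, none of the 36 repair genes was called by limma in any comparison. In INV16 against MIB control 0.155% of all genes were called, 31 of 36 repair genes were below 0 (54.3% of all genes) with a median of -0.36, and 7 had an unadjusted p under 0.05 (15.1%). In ACD mutant against MIB control 0% of all genes were called, 24 of 36 were below 0 (48.6%) and 3 had an unadjusted p under 0.05 (6.9%). In INV16 against ACD mutant 0.0387% of all genes were called, 30 of 36 were below 0 (56.8%) and 6 had an unadjusted p under 0.05 (12.4%). Palb2 then stood at -0.88 (SE 0.24, adjusted p = 0.21) and Helq at -0.67 (SE 0.14, adjusted p = 0.117) in INV16, Helq at -0.51 (SE 0.16, adjusted p = 0.492) in ACD mutant cells, and Prkdc at -0.70 (SE 0.15, adjusted p = 0.151) between the fusions. Of the 97 other repair genes tested, limma called 0 in each comparison over 12 arrays (20, 9 and 15 at an unadjusted p under 0.05), with Rad51b at -0.66 (adjusted p = 0.197) and Ercc5 at -0.38 (adjusted p = 0.52).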

How the data were processed

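Poly-A RNA of 12 sorted samples was amplified with a 2-cycle kit, biotin-labelled and hybridised to Affymetrix arrays, per the labels' protocols. The authors deposited 1 table of log2 signals for 45101 probe sets, ranging from 2.82 to 14.97. The log2 scale was read from the values, and the background correction, normalisation and summary method are not given in the sources used here. Signals of strongly expressed genes compress on such arrays, and precision is limited by how many arrays there are. Gene names came from the platform annotation, in which 34945 probe sets carry 1 symbol and 10156 none or several.

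The filter kept genes with a mean over 12 arrays above the 40th percentile of probe sets (5.10). Groups were compared with limma 3.58.1 in R 4.3.3 (a mean per group, eBayes, two-sided, Benjamini-Hochberg over 12912 genes), tested on simulated data. In the simulated INV16 against MIB control, 26.5% of genes changed by 0.5 on the log2 scale were called, and 89% of those changed by 1. A gene not called is therefore not shown to be unchanged. INV16 replicate 4 was kept out of the fit of 11 arrays, which had 8 residual degrees of freedom, and a fit of all 12 arrays is given beside it. Genes called in any comparison, the pair with the smallest p in INV16 against MIB control in each pathway, and Atm, Atr, Chek1 and Chek2 are given on every array. Other repair and marker genes are named when called, or among the 3 smallest p-values of a comparison over 11 arrays. The repair genes, lists and tests were chosen with earlier results of these data known. Promoter windows came from RefSeq (GRCm38.p6). The alternatives tried were other fits, filters, normalisation, probe set choices, blocks and leaving out each array.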

Additional observations from a re-analysis of the deposited data

Results flagged for a closer look

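INV16 replicate 4 stood far from INV16 replicates 1 to 3 for 13 of the 36 repair genes, by Dixon's test of the gap to the nearest array over the group's range. These were Atr at 7.58, Chek1 at 7.73, Mre11a at 7.90, Brca1 at 6.80, Brca2 at 8.03, Rad51ap1 at 8.24, Rad54l at 7.59, Exo1 at 5.80, Xrcc6 at 8.49, Pms2 at 7.40, Xrcc1 at 7.91 and Parp1 at 9.99, all below the others, and Blm at 11.12, above them. In the 5 MIB control arrays the same test marked Brca2 on replicate 5, at 10.56 against 10.30 to 10.37 on the others. Chance alone marks about 1 in 20 groups. Dixon's test was not run over all genes. INV16 replicate 4 lay below the range of the other 11 arrays for 38.8% of all genes and above it for 34.3%. The 13 marks all come from that 1 array and are not read as particular to repair genes.

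The effects of INV16 and of the ACD mutant, each against MIB control, differed for Prkdc by -0.61 (-0.31 against 0.30, limma adjusted p = 0.0411) and for Ercc5 by -0.64 (-0.37 against 0.28, limma adjusted p = 0.0254). Both differences are the direct comparison of the fusions and share no control array.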

How the results depend on the processing

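Among 66 values of single genes, recomputed 1364 times in all over the alternatives, 0 called values reversed, 69 lost and 1 gained a call. In addition, 97 uncalled values changed sign. The 69 losses all fall on the few values called in the fit of 11 arrays. In INV16 against MIB control the call was lost in 10 of 21 alternatives for Palb2, 14 of 21 for Helq and 13 of 21 for Rad51b. For Helq in ACD mutant against MIB control it was lost in 12 of 21. Between the fusions it was lost in 12 of 20 for Prkdc and 8 of 20 for Ercc5. The count of repair genes called fell from 2 to 0 (INV16 against MIB control) and from 1 to 0 (ACD mutant against MIB control) with all 12 arrays, with the spike-in block, with only the 2 groups compared, within 1 side of the spike-in split, and with all 12 arrays and the spike-in block together, a setting chosen after seeing the data. Between the fusions it fell from 1 to 0 with 12 arrays, quantile normalisation, the spike-in block and both together. Leaving out 1 array gave 0 to 2, 0 to 1 and 0 to 1. Medians moved to -0.36 with 12 arrays and -0.41 with 12 arrays and the block (INV16 against MIB control), to 0.22 with the latter (ACD mutant against MIB control), and, between the fusions, to -0.37 with 12 arrays, -0.07 with quantile normalisation and with probe sets averaged, -0.17 with the block, -0.57 with 12 arrays and the block, and -0.14 to -0.07 without 1 array. The cause was not tested.

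Other repair genes called went from 1 to 0 (12 arrays, the 2 groups alone, within 1 side, 12 arrays with the block) or 2 (probe sets averaged) in INV16, from 0 to 1 (quantile) in ACD mutant cells, and from 1 to 0 (12 arrays, spike-in block, and both, where Ercc5 stood at -0.02) or 5 (the 2 groups alone) between the fusions. Leaving out 1 array gave 0 to 3, 0 to 1 and 0 to 3. Over all genes, the 219, 219 and 267 calls became 20, 0 and 5 with 12 arrays, 151, 20 and 0 with the spike-in block, and 93, 72 and 841 with only the 2 groups. Within 1 side of the split they were 30 and 42, and that setting could not be fitted between the fusions.

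Replicate numbers are shared between groups, but same-numbered arrays did not deviate together (correlations -0.33 to 0.09), so the numbers give no pairing. With the replicate block, repair genes called were 0, 0 and 0, other repair genes called were 0, 0 and 1 (not Ercc5, at -0.64 with adjusted p = 0.0623), the medians were -0.08, -0.03 and -0.12, and all genes called were 1, 24 and 380.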
